A study of Mus musculus with 12 samples.

Results

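The amino acid transporter genes described here are the 41 genes of the Slc1a, Slc3a, Slc7a, Slc36a, Slc38a and Slc43a families that have a transcript cluster of their own, out of 15223 distinct gene symbols measured. They were picked by a pattern in the symbol, with earlier results of these data known. Each is measured by 1 cluster, so no choice between clusters arose. A further cluster that carries Slc1a2 together with another symbol was left out. Expression was read on 12 arrays from the Sdl mouse model, all from females. There were 4 pools of wild-type thymus, Mcm4 (+/+), at 21 days of age, and 4 pools of pre-leukemic thymus, Mcm4 (D573H/+), at the same age. The 4 pools of thymic tumor came from Mcm4 (D573H/+) mice when moribund. Mcm4 encodes a subunit of the replicative helicase. Each pool held 3 organs and filled 1 array, so the spread between single organs is not seen. Tumor and wild-type thymus differ in age or stage and in genotype as well as in disease, and these cannot be told apart.

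Amino acids cross membranes mainly through carrier proteins. Members of the Slc7 family exchange or take up neutral and cationic amino acids, and many of them reach the cell surface only when bound to a heavy chain of the Slc3 family. Slc1 carriers move glutamate or small neutral amino acids, and Slc38 carriers take up glutamine and other neutral amino acids with sodium. Some Slc36 carriers move amino acids with protons, and Slc43 carriers let amino acids diffuse down a gradient. In T cells, activation is known to raise several of these carriers, and leucine and arginine brought in by them feed the kinase complex mTORC1. When amino acids run short, the transcription factor Atf4 switches on carriers, synthesis enzymes and tRNA synthetases.

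The deposited values are normalized intensities on a linear scale, given here as log2. They depend on each cluster's probes, so levels are compared between arrays and never between genes. Between arrays of a group, the correlation across clusters was 0.983 to 0.996, no 2 arrays were identical, and the median intensity of an array lay between 186 and 210. Pre-leukemic replicates 1 and 2 and tumor replicates 2 and 3 had the narrowest range of values, with interquartile ranges of 2.56 to 2.76 against 2.84 to 3.17 on the other arrays. Markers of double-positive thymocytes were present in every group, although 7 of 9 were called lower in tumors. Markers of cortical thymic epithelium were lower in tumors in 12 of 12 cases, with a summed intensity of 32408 to 36748 in wild-type thymus, 35053 to 38208 in pre-leukemic thymus and 3908 to 5426 in tumors. Adipocyte markers fell in 10 of 10 cases. These counts are calls in tumor against wild-type thymus by the rule given below, which called 14.5% of all clusters lower. In whole organs, fewer cells of a type and less RNA per cell cannot be told apart.

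Tumors carried more transcript of the large neutral amino acid exchanger and its heavy chain, of 2 cationic carriers and of 1 Slc36 carrier. They carried less of another Slc36 carrier, of a glutamate carrier and, with 1 tumor pool just below wild type, of the cystine exchanger. A gene was called where the limma test, adjusted over all 17829 clusters, gave an adjusted p under 0.05. Of the 41 genes, 9 rose and 6 fell against wild-type thymus, and 26 were not called. The called share was 36.6%, near the 30.7% of all clusters called in this comparison. By direction, 22.0% rose against 16.2% of all clusters and 14.6% fell against 14.5%. The median difference was 0.18 on the log2 scale, against 0.07 over all clusters. Differences ran from -1.94 for Slc7a11 to 1.24 for Slc7a3. All 4 tumor arrays lay above all 4 wild-type arrays for 10 members and below them for 6, together 39.0%. Over all clusters 18.3% lay above and 15.7% below, together 34.0%. Of the 15 called genes, 13 kept their call in each of the 8 fits that dropped 1 array.

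**Figure D1:**
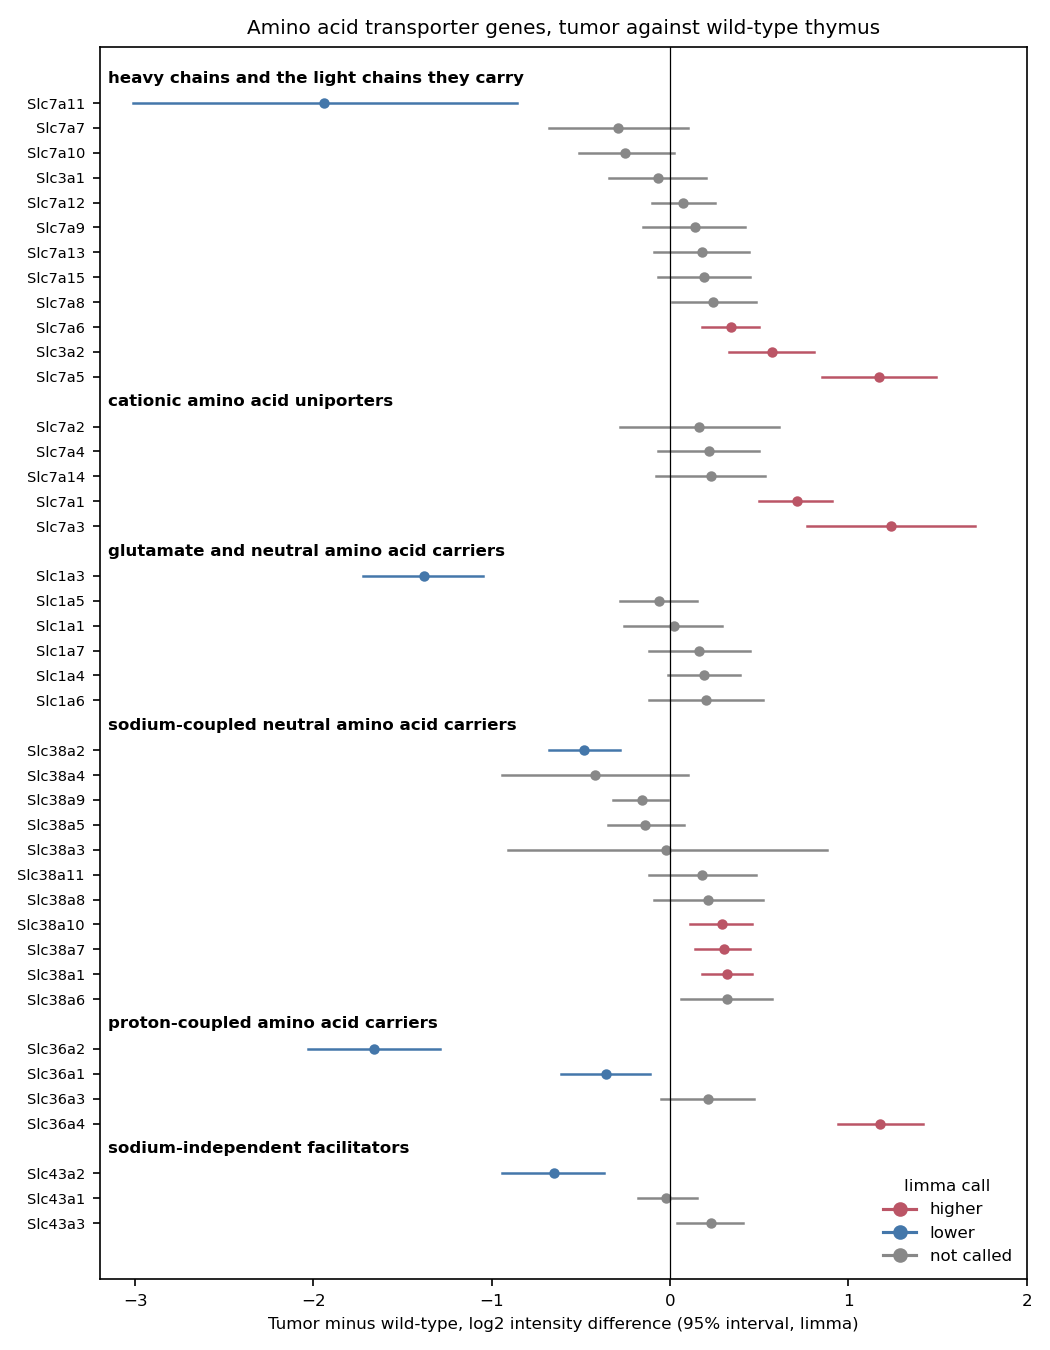
Log2 intensity difference of tumor minus wild-type thymus for the 41 genes, grouped by transport role, with limma's 95% interval (4 arrays per group). The group labelled proton-coupled is the Slc36 family. Red marks the 9 genes called higher, blue the 6 called lower and grey the 26 not called. The largest rises and falls are spread over several roles.

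To set the calls beside the DNA at the start of these genes, promoter windows of 300 bases, from 250 before to 50 after the start site, were taken from RefSeq (GRCm38.p6). Such windows were found for 30 of the 41 genes, as 41 windows. They were searched on both strands for CACGTG, the E-box that Myc and Max bind, and for TGATGNAA, the core of the element that Atf4 binds with C/EBP partners. The sequences shown are those of a heavy chain that rose and has neither motif, the cystine exchanger that fell and has the Atf4 core 2 times, and 2 lysosomal carriers with an E-box of which one rose and one fell. Each is printed 5′ to 3′ from 250 bases before to 10 bases after the start site, and capitals mark the motifs.
Slc3a2, chr19:8713888-8714147, minus strand: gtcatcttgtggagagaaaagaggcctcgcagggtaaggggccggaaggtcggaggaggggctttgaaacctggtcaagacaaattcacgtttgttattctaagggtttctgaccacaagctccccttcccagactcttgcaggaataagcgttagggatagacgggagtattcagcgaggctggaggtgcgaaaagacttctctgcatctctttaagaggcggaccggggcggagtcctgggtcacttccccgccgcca
Slc7a11, chr3:50443604-50443863, minus strand: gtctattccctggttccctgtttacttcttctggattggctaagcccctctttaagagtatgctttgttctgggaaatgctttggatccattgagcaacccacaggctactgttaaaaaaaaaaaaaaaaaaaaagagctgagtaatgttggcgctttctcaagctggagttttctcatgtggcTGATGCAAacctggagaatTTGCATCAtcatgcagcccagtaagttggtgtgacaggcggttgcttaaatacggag
Slc38a7, chr8:95853482-95853741, minus strand: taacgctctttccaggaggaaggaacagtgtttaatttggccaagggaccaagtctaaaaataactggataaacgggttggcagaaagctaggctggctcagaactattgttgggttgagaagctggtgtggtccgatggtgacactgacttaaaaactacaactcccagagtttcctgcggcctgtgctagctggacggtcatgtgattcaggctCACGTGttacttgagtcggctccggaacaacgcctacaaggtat
Slc36a1, chr11:55204090-55204349, plus strand: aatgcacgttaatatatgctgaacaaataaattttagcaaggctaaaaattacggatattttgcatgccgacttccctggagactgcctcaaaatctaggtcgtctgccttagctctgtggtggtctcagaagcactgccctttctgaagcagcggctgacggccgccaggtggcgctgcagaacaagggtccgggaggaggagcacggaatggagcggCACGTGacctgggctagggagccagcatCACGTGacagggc

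In the Slc7a11 window the Atf4 core begins 66 bases before the start site on one strand and 47 bases before it on the other. The other genes whose windows hold this core are Slc1a4, a carrier of small neutral amino acids, and Slc7a7, a cationic exchanger. That makes 4 of the 41 windows of these genes (9.76%), against 3.97% of all 32851 windows. These 4 windows belong to 3 of the 30 genes, because the Slc7a7 windows with the core overlap and share a site. The E-box was found in 7 of the 41 windows (17.1%), against 7.15% of all windows. Of the genes with a window, it was present in 1 of 6 that rose (Slc38a7), 1 of 5 that fell (Slc36a1, 2 times) and 5 of 19 that were not called. The Atf4 core was present in 0 of 6 that rose, 1 of 5 that fell and 2 of 19 that were not called. No match of the 2 motifs overlapped, and a match is a description of the letters, not of binding.

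Among the heavy chains and the light chains they carry, the pair that makes up the leucine exchanger rose together. Slc7a5 (Entrez gene 20539), the light chain that swaps large neutral amino acids for glutamine, measured 9.62, 9.61, 9.48 and 9.76 (log2 intensity) on wild-type arrays 1 to 4 and 10.96, 10.44, 10.66 and 11.10 on tumor arrays 1 to 4. Every tumor lay above every wild-type array. The rise was 1.17 ± 0.14 (log2 difference ± SE, n = 4 per group), or 2.25-fold, at a limma adjusted p of 3.65e-04. Slc3a2 (Entrez gene 17254), the heavy chain CD98 that carries Slc7a5 and other light chains to the surface, measured 10.93, 10.93, 10.68 and 10.89 in wild-type thymus and 11.63, 11.21, 11.36 and 11.53 in tumors. It rose by 0.57 ± 0.11 (limma adjusted p = 0.00345), again with no overlap. For both genes tumor replicates 1 and 4 were the highest and replicate 2 the lowest. Replicates 1 and 4 were also the tumors with the widest intensity range, and without the 4 arrays of narrowest range the differences were 1.41 for Slc7a5 and 0.72 for Slc3a2.

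Slc7a6 (Entrez gene 330836), a light chain that exchanges arginine for glutamine and sodium, rose less. It measured 10.44, 10.44, 10.38 and 10.48 in wild-type thymus and 10.86, 10.73, 10.83 and 10.66 in tumors, a narrow but separate pair of groups. The difference was 0.34 ± 0.07 (limma adjusted p = 0.00563).

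Slc7a11 (Entrez gene 26570), the light chain that takes up cystine in exchange for glutamate and so supplies cysteine for glutathione, moved the other way. It measured 10.50, 10.54, 10.31 and 10.43 in wild-type thymus and 10.11, 7.46, 7.92 and 8.54 in tumors. Tumor replicate 1 lay just below the wild-type arrays and the other 3 tumors far below, so the SD was 1.16 in tumors against 0.10 in wild-type thymus. The fall was 1.94 ± 0.48, or 3.83-fold (limma adjusted p = 0.0135). Without the 4 arrays of narrowest range, which leaves tumor replicates 1 and 4, the difference was -1.12 and the call was lost (limma adjusted p = 0.0599).

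The remaining 8 genes of this group were not called in tumors, and their differences ran from -0.29 to 0.24. The called share of the group was 33.3%, against 30.7% of all clusters. Slc7a7, a cationic exchanger of macrophages and gut, measured 7.96, 8.02, 7.71 and 7.85 in wild-type thymus and 8.15, 7.37, 7.53 and 7.33 in tumors. Tumor replicate 1 was again the highest of the tumors (difference -0.29 ± 0.17, limma adjusted p = 0.249). Slc7a8, the other large neutral exchanger of the surface, had a difference of 0.24 ± 0.10 (limma adjusted p = 0.109). Slc7a10, a serine carrier of brain and white fat, had one of -0.25 ± 0.12 (limma adjusted p = 0.148). It was called lower with quantile normalization (-0.21, limma adjusted p = 0.0483) and without the 4 arrays of narrowest range (-0.45, limma adjusted p = 0.00336). Slc3a1, the heavy chain of kidney and gut, and its partner Slc7a9 had differences of -0.07 and 0.14, and Slc7a12, Slc7a13 and Slc7a15 of 0.07, 0.18 and 0.19.

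Cationic amino acid carriers, which work without a heavy chain, showed 2 rises and no fall among 5 genes. That is 40.0% higher and 0% lower, against 16.2% and 14.5% of all clusters. Slc7a1 (Entrez gene 11987), the general carrier for arginine and lysine, measured 9.29, 9.25, 9.32 and 9.26 in wild-type thymus and 10.14, 9.75, 9.99 and 10.07 in tumors. All tumors stood above all wild-type arrays, and the rise was 0.71 ± 0.09, or 1.63-fold (limma adjusted p = 4.63e-04). Slc7a3 (Entrez gene 11989), a related arginine carrier best known from brain, measured 5.91, 5.63, 5.92 and 5.86 in wild-type thymus and 7.45, 7.51, 6.77 and 6.57 in tumors. The rise of 1.24 ± 0.21 (limma adjusted p = 0.00205) was the largest of the 41, with replicates 1 and 2 above replicates 3 and 4.

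The wild-type level of Slc7a3 lay below the 95th percentile, 6.85, of the 787 clusters of olfactory receptors. These receptors serve smell in the nose and were taken after seeing the data as a gauge of weak signal. All pre-leukemic values of Slc7a3 (5.69 to 6.29) and tumor replicates 3 and 4 lay below that percentile too. Fold changes at such weak intensities can understate the change in RNA. Slc7a2, the inducible arginine carrier of macrophages, and Slc7a4 and Slc7a14 were not called (0.16 ± 0.20, 0.22 ± 0.13 and 0.23 ± 0.14). In all, 17 of the 41 genes had no group mean above that percentile. For these 17 genes, of which 0 were called, an unchanged intensity says little about their RNA. A weak gene that rose past the percentile in any group, as Slc7a3 did in tumors (mean 7.07), is not among them. The 0 is therefore partly set by this rule.

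Among carriers of glutamate and small neutral amino acids, 1 of 6 was called (16.7%, against 30.7% of all clusters). Slc1a3 (Entrez gene 20512), a glutamate and aspartate carrier best known from glia, measured 7.82, 7.92, 7.72 and 7.74 in wild-type thymus and 6.0, 6.65, 6.69 and 6.33 in tumors. It fell by 1.38 ± 0.15 (limma adjusted p = 1.80e-04), with every tumor below every wild-type array. All 4 tumor values lay below the 6.85 of the weak-signal gauge, so the size of the fall can be understated. Cortical epithelial and adipocyte markers also fell in tumors, as did most medullary epithelial, B-cell and neutrophil markers. On pre-leukemic replicate 3, with an adipocyte marker sum of 2516, Slc1a3 measured 7.56, against 7.69 to 7.89 on the other pre-leukemic arrays. The part of any of these cells in the fall of Slc1a3 was not tested.

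Slc1a5 (Entrez gene 20514), the glutamine carrier ASCT2, was not called. It measured 9.42, 9.72, 9.53 and 9.50 in wild-type thymus and 9.62, 9.34, 9.57 and 9.38 in tumors, with full overlap. The difference was -0.06 ± 0.09, with a 95% interval from -0.28 to 0.15 (limma adjusted p = 0.638). Slc1a4 (0.19 ± 0.09) and the glutamate carriers Slc1a1, Slc1a6 and Slc1a7 (0.02, 0.20 and 0.16) were not called either.

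The sodium-coupled neutral carriers had 3 rises (27.3%) and 1 fall (9.09%) among 11, against 16.2% and 14.5% of all clusters. Slc38a1 (Entrez gene 105727), a surface carrier of glutamine, measured 11.23, 11.17, 11.20 and 11.11 in wild-type thymus and 11.46, 11.47, 11.52 and 11.55 in tumors. The groups were narrow and did not overlap (0.32 ± 0.06, limma adjusted p = 0.00436). Slc38a2 (Entrez gene 67760), a close relative that cells induce when amino acids are short, measured 11.91, 11.82, 11.89 and 12.01 in wild-type thymus and 11.35, 11.46, 11.61 and 11.29 in tumors. It fell by 0.48 ± 0.09 (limma adjusted p = 0.00307), with all tumors below all wild-type arrays.

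Slc38a7 (Entrez gene 234595), which exports glutamine and asparagine from lysosomes, measured 7.83, 7.87, 7.70 and 7.82 in wild-type thymus and 8.16, 8.03, 8.08 and 8.12 in tumors. It rose by 0.30 ± 0.07 (limma adjusted p = 0.00949). Slc38a10 (Entrez gene 72055) measured 9.65, 9.53, 9.57 and 9.41 in wild-type thymus and 9.91, 9.87, 9.69 and 9.83 in tumors, which left a small gap between the groups. Its rise of 0.29 ± 0.08 (limma adjusted p = 0.0233) lost its call when wild-type replicate 2 or 4 was dropped, and with a replicate block (limma adjusted p = 0.0649).

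Slc38a9 (Entrez gene 268706), the lysosomal carrier that reports arginine to mTORC1, measured 9.61, 9.66, 9.52 and 9.55 in wild-type thymus and 9.37, 9.39, 9.51 and 9.42 in tumors. The groups just failed to touch, and the difference of -0.16 ± 0.07 was not called (limma adjusted p = 0.0996). Slc38a6 (0.32 ± 0.11), Slc38a4 (-0.42 ± 0.23) and Slc38a5 (-0.14 ± 0.10) were not called. Slc38a3, Slc38a8 and Slc38a11 had differences of -0.02, 0.21 and 0.18. The Slc38a3 value rests on wild-type replicate 4, at 8.21 against 6.24 to 6.50 on the other wild-type arrays. Without that array Slc38a3 had a difference of 0.45 and was called higher (limma adjusted p = 0.0357). Other uncalled genes that a single dropped array brought past the threshold were Slc38a6 and Slc7a7 (tumor replicate 1), Slc7a8 (tumor replicate 2) and Slc7a4 (tumor replicate 4).

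**Figure D2:**
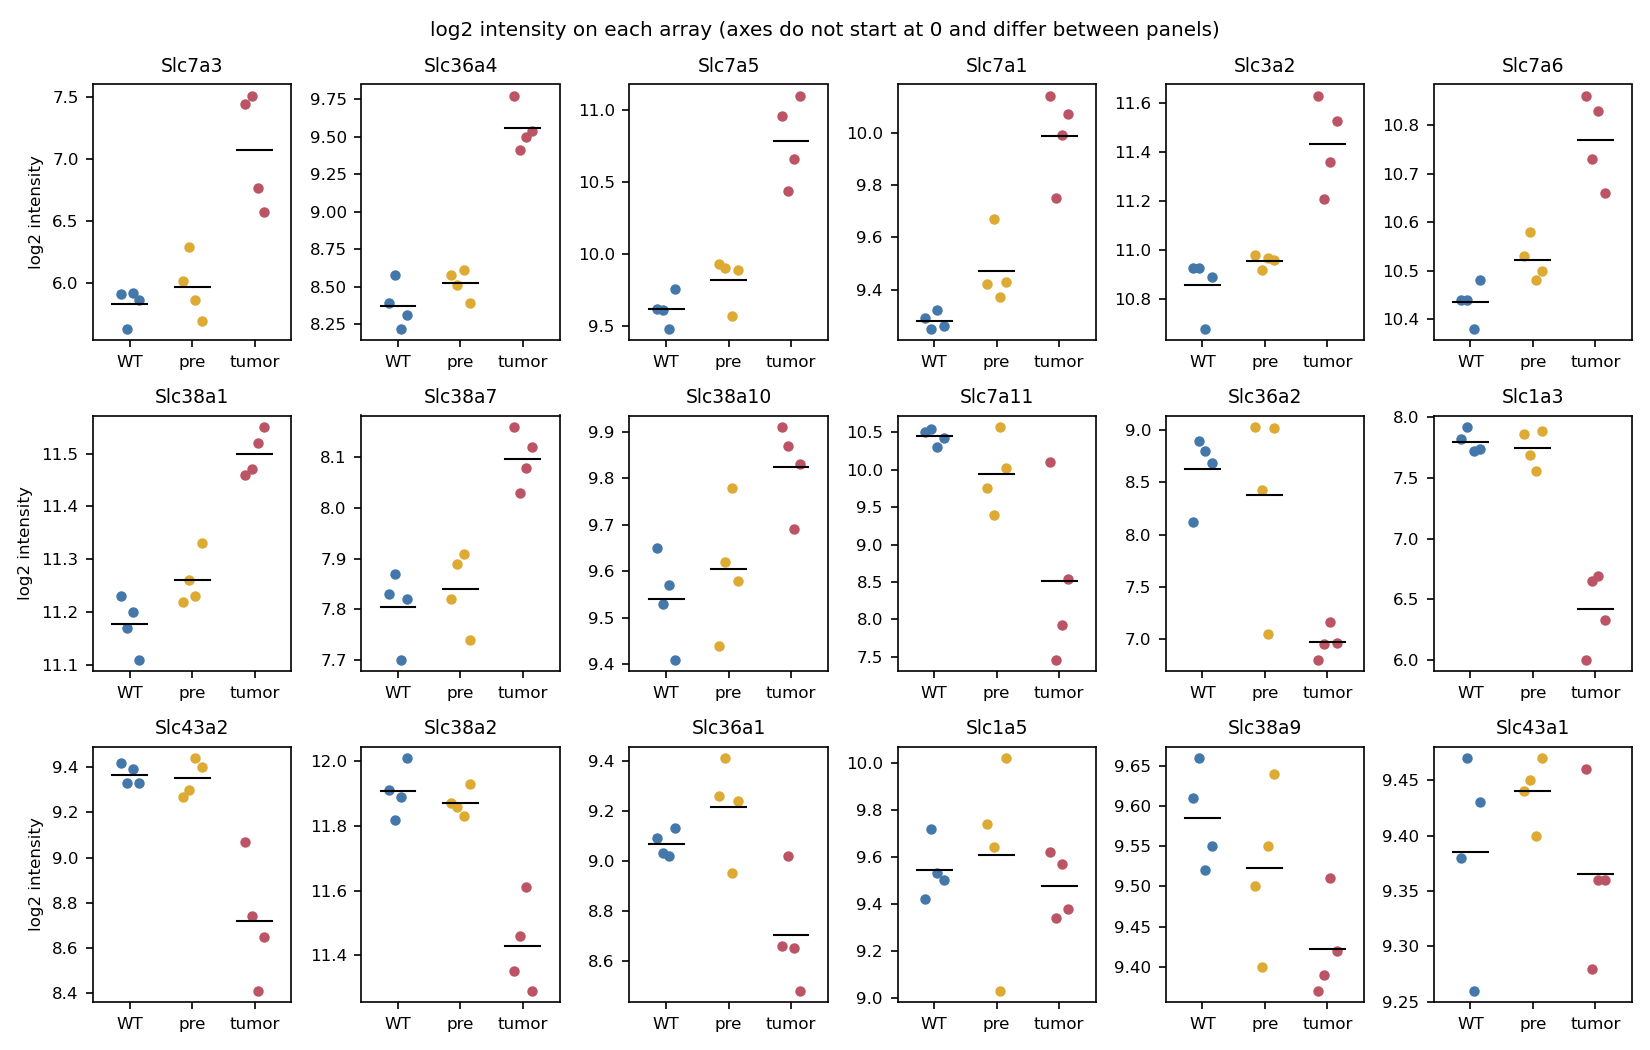
Log2 intensity on each of the 12 arrays for the 15 called genes and for Slc1a5, Slc38a9 and Slc43a1, in wild-type (WT), pre-leukemic (pre) and tumor arrays, ordered by replicate within a group. Points are arrays, lines are group means, and the vertical axes differ between panels and do not start at 0. Slc7a5 runs from 9.48 to 9.76 in wild-type thymus and from 10.44 to 11.10 in tumors, whereas Slc7a11 spreads from 7.46 to 10.11 among tumors.

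Of the 4 proton-coupled carriers 1 rose and 2 fell, beside 16.2% of all clusters called higher and 14.5% called lower. Slc36a4 (Entrez gene 234967), a high-affinity carrier of proline and tryptophan, measured 8.39, 8.58, 8.22 and 8.31 in wild-type thymus and 9.77, 9.41, 9.50 and 9.54 in tumors. It rose by 1.18 ± 0.10, or 2.27-fold, and had the smallest adjusted p of the 41 genes (limma adjusted p = 7.09e-05). Slc36a1 (Entrez gene 215335), the lysosomal relative that activates mTORC1 signalling, measured 9.09, 9.03, 9.02 and 9.13 in wild-type thymus and 8.66, 9.02, 8.65 and 8.48 in tumors. Tumor replicate 2 reached the wild-type range. The fall of 0.36 ± 0.11 (limma adjusted p = 0.0343) held its call in 1 of the 8 fits with an array dropped, that without tumor replicate 2, and lost it with a replicate block (limma adjusted p = 0.0747).

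Slc36a2 (Entrez gene 246049), a carrier of glycine and proline known as a surface marker of brown fat, fell most clearly of this group. It measured 8.12, 8.90, 8.80 and 8.69 in wild-type thymus, 9.03, 8.43, 7.05 and 9.02 in pre-leukemic thymus and 6.80, 6.95, 7.16 and 6.96 in tumors. All tumors lay below all wild-type arrays, and pre-leukemic replicate 3 lay among the tumors. The fall against wild-type thymus was 1.66 ± 0.16, or 3.16-fold (limma adjusted p = 1.19e-04). The tumor values lay close to the weak-signal gauge, with replicate 1 below it. The summed intensity of the 10 adipocyte markers was 7912, 12736, 11359 and 10704 in wild-type thymus. It was 13925, 9525, 2516 and 15297 in pre-leukemic thymus and 1351, 1473, 2342 and 1153 in tumors. The same pre-leukemic replicate 3 was thus low for both, and wild-type replicate 1 was the lowest wild-type array for both. This was not particular to adipocyte markers. Pre-leukemic replicate 3 was also the lowest of its group for fibroblast (3900), endothelial (1915), erythroid (2727), neutrophil (1182), and macrophage and dendritic cell (5739) markers. It was not the lowest for cortical, medullary, double-positive and B-cell markers. Wild-type replicate 1 was also the lowest of its group for endothelial markers (2221). The part of fat or of other cells in the Slc36a2 value was not tested. Slc36a3 was not called (0.21 ± 0.11).

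**Figure D3:**
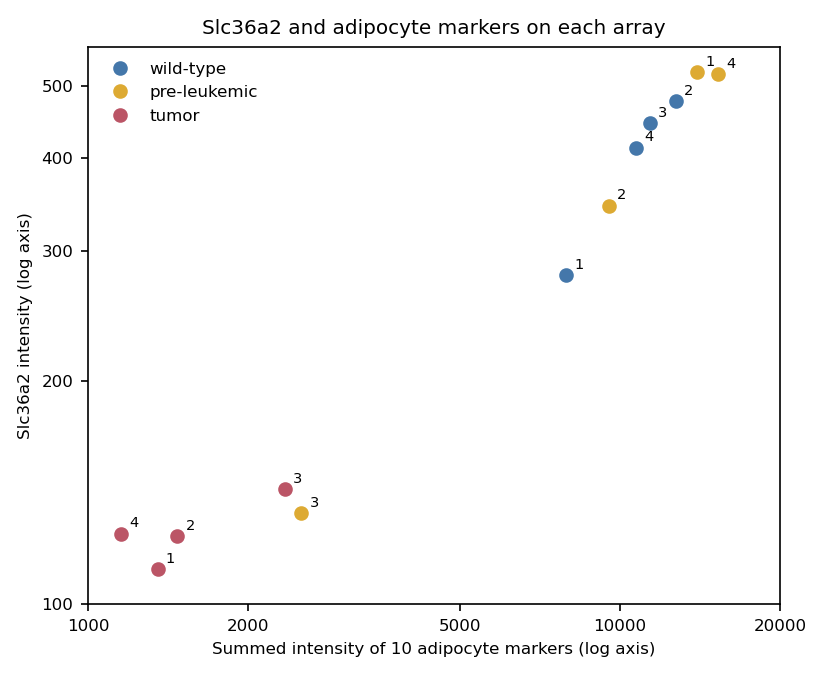
Intensity of Slc36a2 (vertical, log axis) against the summed intensity of 10 adipocyte markers (horizontal, log axis) on each of the 12 arrays, numbered by replicate. The 4 tumors and pre-leukemic replicate 3 lie at the lower left, with marker sums of 1153 to 2516, and the other 7 arrays lie at the upper right, with sums of 7912 to 15297.

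Of the 3 facilitators, 1 fell (33.3%, against 14.5% of all clusters). Slc43a2 (Entrez gene 215113), which lets large neutral amino acids leave or enter along their gradient, measured 9.42, 9.33, 9.39 and 9.33 in wild-type thymus and 9.07, 8.74, 8.41 and 8.65 in tumors. It fell by 0.65 ± 0.13 with no overlap (limma adjusted p = 0.00425). Slc43a1 (Entrez gene 72401), a facilitator of the same substrates, measured 9.38, 9.47, 9.26 and 9.43 in wild-type thymus and 9.46, 9.28, 9.36 and 9.36 in tumors. The groups overlapped fully, with a difference of -0.02 ± 0.07 and a 95% interval from -0.18 to 0.15 (limma adjusted p = 0.880). Slc43a3, known as a purine nucleobase carrier, was higher on all tumor than on all wild-type arrays but was not called (0.23 ± 0.08, limma adjusted p = 0.0627).

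The study's own rule also asked for a posterior probability of a difference over 95%. With a posterior computed from limma's B at a prior share of 0.01, 4 of the 15 called genes remained, namely Slc7a5, Slc36a4, Slc1a3 and Slc36a2. Against a change of at least 1.2-fold, 7 remained, with Slc7a1, Slc7a3 and Slc7a11 added.

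In pre-leukemic thymus, compared with wild-type thymus at the same age, no amino acid transporter gene was called. The count was 0 of 41 with limma, against 0% of all clusters, and it was 0 under all 19 alternatives. At an unadjusted p under 0.05 there were 4 of 41, against 6.24% of all clusters. The groups did not overlap for 3 genes (7.32%, against 4.43% of all clusters), namely Slc7a1, Slc7a6 and Slc7a8, each higher in pre-leukemic thymus. Over all clusters 3.65% were higher in this way and 0.780% lower. Differences ran from -0.51 to 0.25, with a median of 0.09 against 0.04 over all clusters.

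The 5 genes with the smallest p were Slc7a8, Slc38a6, Slc7a1, Slc7a11 and Slc43a3, each at a limma adjusted p of 0.764. Slc7a8 measured 7.54, 7.56, 7.41 and 7.40 in wild-type thymus and 7.68, 7.79, 7.57 and 7.74 in pre-leukemic thymus (0.22 ± 0.07). Slc7a1 measured 9.42, 9.67, 9.37 and 9.43 in pre-leukemic thymus, all above the 9.25 to 9.32 of wild type (0.19 ± 0.08). The gap was small in both, and in Slc7a1 replicate 2 stood above the other pre-leukemic arrays. Slc7a11 measured 9.76, 9.40, 10.57 and 10.02 (-0.51 ± 0.21), so that replicate 3 lay above all wild-type arrays and the other 3 below. Slc38a6 had a difference of 0.25 ± 0.09 and Slc43a3 one of 0.22 ± 0.10. Slc7a5 measured 9.93, 9.90, 9.57 and 9.89 in pre-leukemic thymus, with replicate 3 inside the wild-type range (0.20 ± 0.10, limma adjusted p = 0.764). Slc3a2 measured 10.98, 10.92, 10.97 and 10.96, so that 3 of the 4 lay above the highest wild-type array, at 10.93 (0.10 ± 0.07, limma adjusted p = 0.782).

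Tumor against pre-leukemic thymus compares moribund mice with mice of the same genotype at 21 days, and shares the tumor arrays with the comparison against wild type. Here 5 genes rose and 5 fell, 24.4% of the 41 against 16% of all clusters. The tumor arrays lay apart from the pre-leukemic arrays for 11 genes, 8 higher and 3 lower (26.8%), against 21.8% of all clusters (11.6% higher and 10.2% lower). The genes that rose (12.2%, against 7.74% of all clusters) were Slc7a3 (1.11 ± 0.23, limma adjusted p = 0.0109), Slc36a4 (1.03 ± 0.10, limma adjusted p = 2.86e-04), Slc7a5 (0.97 ± 0.16, limma adjusted p = 0.00343), Slc7a1 (0.52 ± 0.11, limma adjusted p = 0.0143) and Slc3a2 (0.48 ± 0.10, limma adjusted p = 0.0149). A replicate block took the call from Slc7a1 (limma adjusted p = 0.0527). All pre-leukemic values of Slc7a3 lay below the weak-signal gauge, so the size of its rise can be understated.

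Those that fell (12.2%, against 8.27% of all clusters) were Slc36a2 (-1.41 ± 0.38), Slc1a3 (-1.33 ± 0.16), Slc43a2 (-0.64 ± 0.13), Slc36a1 (-0.51 ± 0.14) and Slc38a2 (-0.44 ± 0.09). Their limma adjusted p were 0.0350, 8.20e-04, 0.0126, 0.0355 and 0.0124. The Slc1a3 difference is again set against tumor values below the weak-signal gauge. Slc36a2 lost its call in 7 of the 8 fits without 1 array (all but that without pre-leukemic replicate 3) and Slc36a1 in 6 of the 8 (all but those without tumor replicate 2 or pre-leukemic replicate 3). Slc36a2 also lost it with a replicate block (limma adjusted p = 0.0531). Without the 4 arrays of narrowest range, which leaves 2 arrays per group, the number that fell was 1, Slc1a3, and Slc7a3 lost its call among the rises. Slc7a11 was not called here (-1.43 ± 0.51, limma adjusted p = 0.0917), and tumor replicate 1, at 10.11, lay within the pre-leukemic range of 9.40 to 10.57.

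Genes that use or sense the amino acids were read from 11 lists, in tumor against wild-type thymus, and are described by counts. These lists too were chosen with earlier results of these data known. The lists share some genes, Asns among them. Aminoacyl-tRNA synthetases of the cytosol, which load amino acids onto tRNA, rose in 17 of 17 cases (median 0.52), led by Vars (1.04 ± 0.08) and Yars (0.97 ± 0.13). Of 19 genes of Atf4 and its amino acid response targets 14 rose and 2 fell (median 0.64). The largest rises were those of Asns (1.91 ± 0.16), which makes asparagine, and Shmt2 (1.22 ± 0.11), of serine and glycine metabolism. The falls were those of Vldlr (-0.77 ± 0.11), a lipoprotein receptor, and Nupr1 (-0.57 ± 0.15), a stress-induced nuclear protein. The Atf4 list held none of the transporter genes described above, of which 9 rose and 6 fell. Any of those carriers that Atf4 switches on are therefore not in its counts. Of 13 enzymes of glutamine and glutamate 8 rose and 1 fell (median 0.56), with Asns and Cad (1.16 ± 0.08), the start of pyrimidine synthesis, in front. Glul, which makes glutamine, was the one that fell (-1.16 ± 0.20). These shares stand beside 16.2% of all clusters called higher and 14.5% called lower, and beside a median of 0.07.

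Other lists, beside the same shares of all clusters, were mixed. Among 12 mitochondrial amino acid carriers, 5 rose and 1 fell (median 0.10), with Sfxn1 (0.85 ± 0.07), a serine carrier, Slc25a15 (0.53 ± 0.11), the ornithine carrier, and Slc25a38 (-0.47 ± 0.08), a glycine carrier. Among 12 carriers of the Slc6 and Slc16 families, 2 rose and 0 fell (median 0.11), namely the glycine carrier Slc6a9 (0.46 ± 0.09) and the aromatic amino acid carrier Slc16a10 (0.38 ± 0.08). Of 4 other lysosomal carriers 0 rose and 1 fell (median 0.01), the cystine exporter Ctns (-0.34 ± 0.08). In the list for mTORC1 and amino acid sensing, 4 of 28 rose and 6 fell (median 0.08). Deptor, which binds and inhibits mTOR, and Sesn2, a leucine sensor, rose (1.00 ± 0.13 and 0.70 ± 0.11). Sesn1 and Sesn3, of the same family as Sesn2, fell (-0.73 ± 0.09 and -0.85 ± 0.16). Castor1, an arginine sensor, and Rragd, a Rag GTPase, fell (-1.27 ± 0.10 and -0.88 ± 0.12).

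Of 8 branched-chain amino acid enzymes, 2 rose and 3 fell (median -0.17). Bcat1, the cytosolic aminotransferase, rose (1.22 ± 0.09), as did Bckdk (0.57 ± 0.13), the kinase that switches off the dehydrogenase. The dehydrogenase subunits Bckdhb (-0.74 ± 0.17) and Bckdha (-0.40 ± 0.13) fell. Of 12 enzymes of arginine and polyamines, 4 rose and 3 fell (median 0.14). Arg1, the arginase of liver and some macrophages, and Odc1, the first enzyme of polyamine synthesis, rose (3.04 ± 0.33 and 0.82 ± 0.09). Arg2, the mitochondrial arginase, and Smox, spermine oxidase, fell (-1.36 ± 0.12 and -0.70 ± 0.09).

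Of 11 glutathione and cystine-linked genes, 4 rose and 1 fell (median 0.25). Hmox1, heme oxygenase, and Gsr, glutathione reductase, rose (2.50 ± 0.12 and 1.43 ± 0.08), and Nqo1, a quinone reductase, fell (-1.08 ± 0.32). Slc7a11, which supplies the cystine, fell in the same tumors. In the Myc family 1 of 9 rose and 3 fell (median -0.22). Myc itself rose (1.28 ± 0.09), whereas Mxd1, a repressor that competes for Max, and Mycl fell (-0.41 ± 0.10 and -0.33 ± 0.09). Each of these named genes had a limma adjusted p of at most 0.0403. In pre-leukemic thymus 0 genes of the 11 lists were called by limma.

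**Figure D4:**
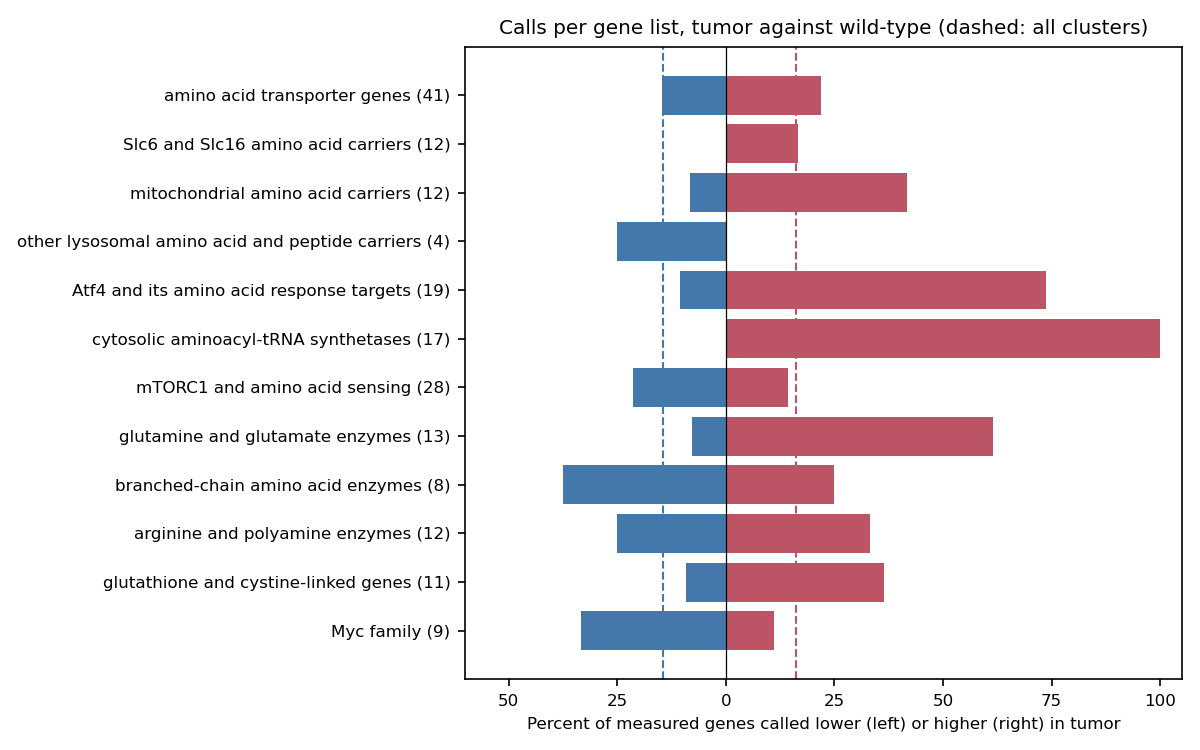
Percent of the measured genes of each list called lower (left, blue) or higher (right, red) by limma in tumor against wild-type thymus, with the number measured in brackets. Dashed lines give the share of all clusters, 14.5% lower and 16.2% higher. The transporter genes lie close to both lines, and the tRNA synthetases reach 100% higher.

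Markers of other cells in the samples moved with these comparisons, beside 16.2% of all clusters called higher and 14.5% called lower in tumor against wild-type thymus. Medullary epithelial markers fell in 6 of 9 cases, with Krt17 (-2.67) and Epcam (-2.19) in front, and cortical ones were led by Prss16 (-5.81) and Tbata (-5.40). Adipocyte markers were led by Ucp1 (-4.66) and Car3 (-4.12), and double-positive markers by Ccr9 (-2.89) and Rag2 (-2.12). B-cell markers fell in 5 of 7 cases (Ms4a1, -1.95, and Jchain, -1.59), and neutrophil markers in 5 of 8 (S100a8, -2.45, and S100a9, -1.71). Fibroblast markers fell in 6 of 10 cases and rose in 1, with Dpt (-2.14), Lum (-1.56) and Pdgfrb (2.39). Endothelial markers fell in 4 of 10 (Kdr and Emcn, both -0.90). Erythroid markers fell in 2 of 6 (Alas2, -3.96, and Slc4a1, -1.43) and rose in 1, the transferrin receptor Tfrc (0.94), which dividing cells also use. Macrophage and dendritic cell markers rose in 3 of 12 cases and fell in 0, with Cd5l (3.22) and Cd68 (0.64). Their summed intensity was 5111 to 5836 in wild-type thymus and 4779 to 9610 in tumors, lowest in tumor replicate 2. The part of any of these cells in the transporter values was not tested.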

How the data were processed

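Total RNA of whole thymus and thymic tumors was hybridised to 12 exon-type arrays, 1 per pool of 3 organs. The values deposited by the authors are normalized intensities on a linear scale, 1 for each transcript cluster and array. How they were normalized is not given in the sources used. Another 24 columns of deposited values carry pool names that match no sample label and were not used. Intensities of 17829 clusters were log2-transformed without a pseudocount. By the platform annotation 15618 clusters carry a single gene symbol, 1370 carry more than 1 and 841 carry none.

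Each comparison was fitted on its 8 arrays by a moderated linear model, two-sided (limma 3.58.1, R 4.3.3). Adjusted p are Benjamini-Hochberg values over all 17829 clusters, and a gene was called under 0.05. No filter on low values was used. An array has no read depth, so precision rests on the number of arrays. The median SE over clusters was 0.100 (pre-leukemic minus wild-type), 0.103 (tumor minus wild-type) and 0.128 (tumor minus pre-leukemic).

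The test was tried on simulated data that kept each cluster's mean over both groups and its spread from the fit. Noise was normal and independent between clusters and arrays, and 200 genes were changed. For tumor against wild-type it found 52.2% of the genes given a log2 change of 0.5 and 98.5% of those given 1. It wrongly called 6 of 17629 genes left alone. For tumor against pre-leukemic thymus it found 22.4% and 86.6%, with 4 wrong calls, and for pre-leukemic against wild-type 47.8% and 97%, with 10. The real tumor comparisons called far more clusters (5474 against wild type, 2855 against pre-leukemic), and deviations shared across an array were not simulated. These rates therefore need not hold for the real data.

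The genes and the 21 gene lists were chosen with earlier results of these data known. Array-by-array values were given for members called in any comparison and for Slc3a2, Slc7a5, Slc1a5, Slc7a11, Slc7a1, Slc38a1, Slc38a2, Slc38a9 and Slc43a1 whatever their result. With fewer than 5 members called in pre-leukemic thymus, the 5 with the smallest p were named. From each list the 2 largest called rises and the 2 largest called falls in tumors were named, and Sesn1 and Sesn3 were added beside Sesn2. Lists were described by counts and medians and not tested. Alternatives left out each array, added the replicate number as a block, fitted all 12 arrays together, changed the normalization, centring, prior, pseudocount (16) or filter (mean log2 above 6), and used stricter call rules.

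Same-numbered arrays of different groups deviated together (correlation over 0.1) in 3 of 12 pairs, with correlations from -0.55 to 0.42, so the numbers were not taken to pair the samples.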

Additional observations from a re-analysis of the deposited data

Results flagged for a closer look

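Within groups of 4 arrays, 6 of 123 tests across the 41 genes placed 1 array apart from the other 3 by Dixon's 95% criterion, and chance gives about 6. Of these, 3 were wild-type replicate 4, with Slc38a3 at 8.21 (log2 intensity, others 6.24 to 6.50), Slc38a4 at 7.49 (others 6.44 to 6.57) and Slc7a2 at 6.57 (others 6.19 to 6.21). Slc3a2 stood low on wild-type replicate 3, at 10.68 (others 10.89 to 10.93). Slc7a5 stood low on pre-leukemic replicate 3, at 9.57 (others 9.89 to 9.93). Slc7a8 stood low on tumor replicate 2, at 7.43 (others 7.81 to 7.84).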

How the results depend on the processing

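In tumor against wild-type thymus, a posterior over 95% left 2 transporter genes higher and 2 lower (all clusters 351 and 535), and a 1.2-fold test left 4 and 3 (all clusters 784 and 1123). In tumor against pre-leukemic thymus these rules left 1 and 1 (all clusters 112 and 252) and 3 and 1 (all clusters 306 and 587). There, 8 transporter genes were higher with all 12 arrays in one fit (2194 clusters, against 1380) and 8 with a pseudocount of 16 (1524 clusters). Without the 4 arrays of narrowest range, an alternative chosen after seeing the data, 1 was lower (all clusters 400 higher, 453 lower). Leaving out 1 array gave 3 to 5 lower, and over all clusters 752 to 1284 higher and 976 to 1484 lower. In pre-leukemic against wild-type thymus it gave 0 to 1 clusters higher. With the replicate number as a block, tumor against pre-leukemic thymus had 900 clusters higher, with 4 transporter genes higher and 4 lower. Beyond the calls named above as lost, the block ended no call of a transporter gene.

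Of 56 named differences under 1000 alternatives, 905 kept direction and side of the threshold, 65 lost the call, 14 gained one and 16 changed sign. The last concern uncalled genes in tumor against wild type. Without the narrow arrays Slc1a1 was -0.20, Slc1a6 -0.03, Slc1a7 -0.04, Slc38a11 -0.04, Slc38a8 -0.01 and Slc43a1 0.03, and median centring gave 0.00 for Slc38a3 and Slc43a1. Leaving out 1 array gave -0.06 to 0.09 for Slc1a1, -0.21 to 0.45 for Slc38a3, -0.06 to 0.01 for Slc43a1 and -0.03 to 0.30 for Slc7a2. The stricter rules call fewer genes by construction, and for the other changes the cause was not tested. Calls gained in tumor against wild type, beside those named above, were Slc1a4 and Slc7a8 without the narrow arrays, Slc38a8 with quantile normalization, Slc38a6 with median centring, and Slc43a3 with centring, the filter, the robust prior or the pseudocount. Each gene has 1 cluster, so the choice of the lowest cluster changed nothing. Intensities near background limit the 17 weak genes.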
